A study of Mus musculus with 32 samples.

Results

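The 47 genes described here act in the nucleolus on the making of ribosomes, or carry names of that kind. Every gene whose platform symbol begins with Nop, Nol, Rrp or Utp followed by a digit was taken, which gave 37 genes, and 10 genes were added by name: Npm1, Ncl, Fbl, Bop1, Pes1, Wdr12, Polr1a, Polr1b, Gnl3 and Dkc1. They are 47 of the 18194 genes measured. The prefix also brought in Nol3, a repressor of apoptosis, and Nol4 and Nol4l, which are not known as assembly factors. These are kept in all counts and described last.

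Liver of CD-1 mice was measured on Affymetrix arrays, with 2 arrays for each of 16 groups, to compare regenerating with developing liver. The control, time 0, was normal liver of 10-week-old females. The 9 regenerating groups were livers of such females taken early (1, 2 or 6 h), at 12 or 18 h, at 24 or 30 h, or late (48 or 72 h) after removal of 2/3 of the liver with the gallbladder under ketamine and xylazine, with buprenorphine for pain relief. The 6 developing groups were embryonic livers, 1 group for each day between 10.5 and 14.5 days after conception and 1 for 16.5 days. No group had sham surgery, so in every operated group the loss of liver cannot be told apart from surgery, anaesthesia and analgesia. Each array held RNA pooled from at least 3 tissues of different animals, so the spread between 2 arrays is that between pools. Some label fields of the embryonic samples (an age of 10.5 days throughout, a description as adult liver) go against their source names, and the stages were taken from the source names.

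Ribosome assembly begins in the nucleolus, where RNA polymerase I transcribes the long precursor of the ribosomal RNAs. Small nucleolar RNPs then methylate and pseudouridylate the precursor at chosen bases, and large complexes of U3 proteins and UTP proteins fold and cut it into the small subunit, while the PES1-BOP1-WDR12 complex and its neighbours mature the large subunit. Growing cells need many ribosomes, and the hepatocytes that remain after partial hepatectomy are known to enlarge and to form prominent nucleoli before they divide. In the embryo the liver grows fast and is also the main site of blood formation.

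The deposited value is an intensity per probe set on a linear scale, and a gene is read from 1 probe set. Changes are differences of log2(value + 16), which understates changes of dim genes. Every test is limma's moderated test with Benjamini-Hochberg adjustment over all 18194 genes, and a gene is called higher or lower at an adjusted p below 0.05. Intensities are not comparable between probe sets, so levels are compared only within a gene. Array medians ran from 69.7 to 79.5, and 46 members were above the median of all values (74.6) in at least 1 group. Over 8 measured hepatocyte markers of 9 listed, which include albumin, the summed intensity was 34345 and 38160 on the time 0 arrays and 5582 and 6330 at 10.5 days. In RNA quality, the log2 ratio of the 3′ to the 5′ control probe set of Actb was 2.42 on the second 48 h array and at most 1.72 on any other. The same ratio for Gapdh was 1.49 on the first 10.5-day array and 1.22 on the second 48 h array, against at most 0.323 elsewhere. By group, the Actb ratio was 0.572 and 1.39 at 12 h and 0.58 and 0.639 at 18 h. It was 0.724 to 1.72 at 1 to 6 h and 0.765 to 1.2 at 24 and 30 h. At time 0 it was 0.782 and 1.02, and in the embryo 0.334 to 0.902. Its part in the members' changes was not tested. In bulk tissue such as this, more cells of a type and more RNA per cell cannot be told apart.

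As a group the members rose at 12 and 18 h after hepatectomy, had returned by 24 h, and stood far higher throughout embryonic life. The median member was 0.29 above time 0 on the log2 scale at 12 h and again 0.29 above it at 18 h. At the other 7 times after surgery the same median lay between -0.10 and 0.04. It was 1.02 at 10.5 days, 1.36 at 11.5 days, 1.24 at 12.5 days, 1.21 at 13.5 days, 1.06 at 14.5 days and 1.01 at 16.5 days. The median over all genes stayed between -0.04 and 0.06 in every group. Of the 47 members, 19 had their highest adult level at 12 h and 13 at 18 h, and 28 had their highest embryonic level at 11.5 days. The 2 time 0 arrays themselves differed, with a median member 0.18 above their mean on the first and 35 of 47 members higher there.

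**Figure D1:**
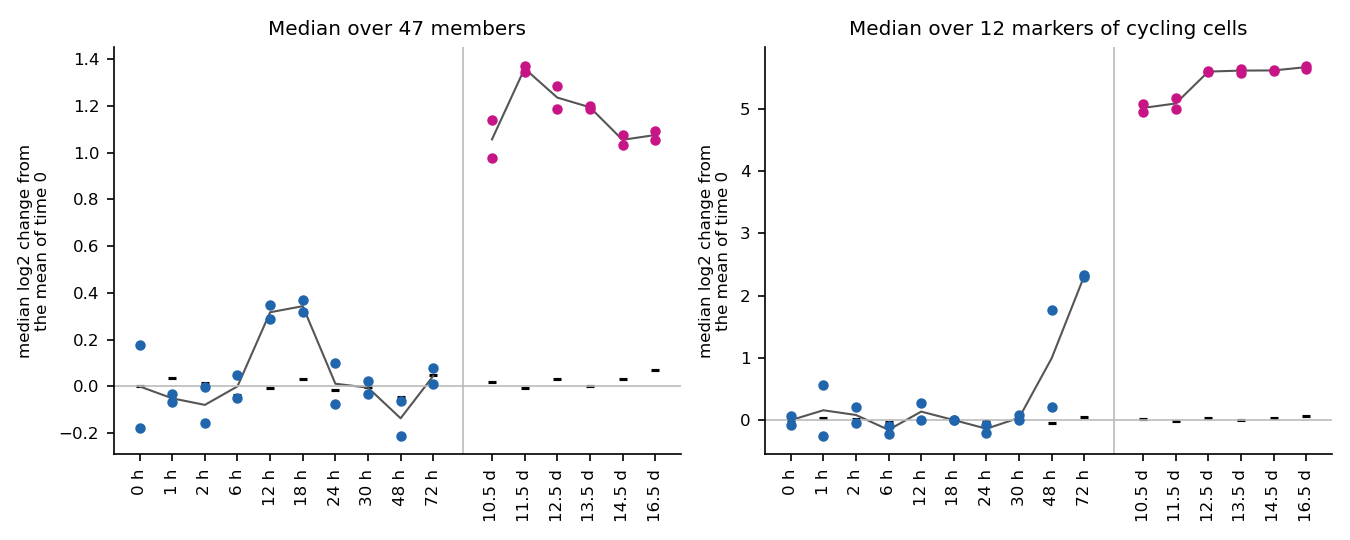
Median log2 change from the mean of time 0 on each array (points; blue, adult; pink, embryonic), with lines through the group means and black dashes for the median over all genes, for the 47 members (left) and 12 markers of cycling cells (right, another scale). The members are high at 12 and 18 h, when the cycling markers are level, and back near time 0 at 72 h, when the cycling markers stand at 2.32.

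The first hours brought no change that passed the test. At 1 to 6 h (6 arrays) against time 0 (2 arrays) 0 of the 47 members were called by limma in either direction, where 0.693% of all genes were called higher and 0.253% lower, and 3 members had an unadjusted p below 0.05. The median member changed by -0.06. At 6 h alone the median member was -0.003 from time 0, against -0.04 over all genes, and 22 of 47 members lay above time 0. No comparison of 6 h alone was fitted. A member that read high there was Nop58, a core protein of the snoRNPs that guide methylation. It read 127 and 87.8 at 6 h against 83.7 and 40.9 at time 0.

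At 12 and 18 h the change was wide among the members. Against 1 to 6 h, 20 of the 47 members were called higher and 1 lower, where 8.9% of all genes were called higher and 9.51% lower. The median member rose by 0.30, against 0.02 over all genes, and 40 of 47 changes were positive. Against time 0 the same 4 arrays gave 11 members called higher and 0 lower (18 with an unadjusted p below 0.05), where 5.22% of all genes were called higher and 4.81% lower, with a median of 0.26. The count against time 0 rests on the control: it was 4 without the second time 0 array and 14 without the first. It was 1 when only the 6 arrays compared were fitted. The comparison with 1 to 6 h called between 16 and 22 members higher when 1 array was left out, with 22 on leaving out the second 12 h array, whose Actb 3′ to 5′ ratio was 1.39 against 0.572 on the first.

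The nucleolar chaperones and the GTPase Gnl3 moved together. Npm1, or nucleophosmin, an abundant nucleolar chaperone, read 1292 and 1134 at 12 h and 1169 and 1510 at 18 h, against 604 to 753 on the 6 arrays of 1 to 6 h and 666 and 686 at time 0. All 4 arrays lay above all 8 earlier ones, and the rise over 1 to 6 h was 0.91 ± 0.14 (SE), or 1.89-fold, with a limma adjusted p of 4.86e-05. Ncl, or nucleolin, which binds nascent ribosomal RNA, read 669 and 588 at 12 h and 792 and 775 at 18 h, against 281 to 350 at 1 to 6 h and 445 and 336 at time 0. Its 12 and 18 h arrays did not overlap the earlier ones either, and it rose 2.20-fold over 1 to 6 h (log2 change 1.13 ± 0.14, adjusted p 8.29e-06). Gnl3, or nucleostemin, a GTPase of growing cells, read 666 and 712 at 12 h and 381 and 487 at 18 h, against 159 to 406 at 1 to 6 h and 224 and 190 at time 0. One 18 h array fell below the highest 6 h array, so these groups overlap, and the rise was 1.14 ± 0.16 (adjusted p 3.71e-05).

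**Figure D2:**
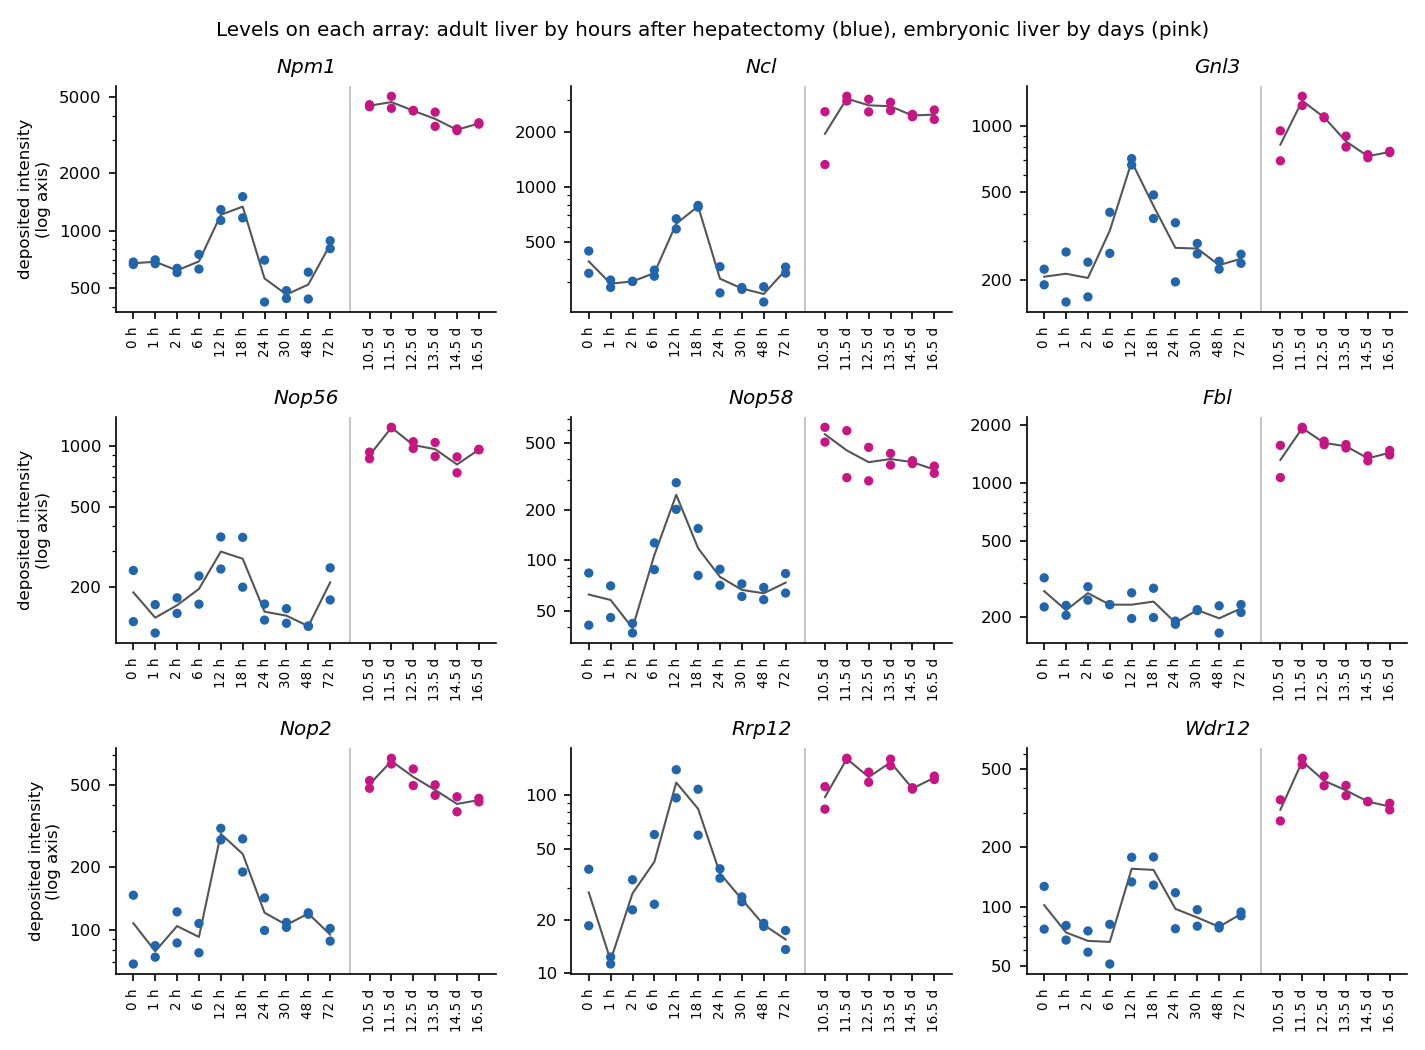
Deposited intensity (log axes, each with its own range) of 9 members on each of 32 arrays, as points with lines through the group means; adult arrays in blue, embryonic arrays in pink. The other 8 panels show a peak at 12 or 18 h, Fbl has none, and all 9 are higher in the embryonic groups than at time 0.

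Of the 3 members of the box C/D snoRNP, which methylates ribosomal RNA, 2 were called higher over 1 to 6 h on the probe sets analysed. Nop58 read 201 and 290 at 12 h and 81.0 and 154 at 18 h, against 36.7 to 127 at 1 to 6 h, a rise of 1.21 ± 0.20 (adjusted p 0.000163). Its highest levels were thus on the 12 h arrays, while the 18 h arrays overlapped those of 6 h. Nop56, its partner in the core, read 353 and 245 at 12 h and 199 and 352 at 18 h, against 118 to 226 at 1 to 6 h, a rise of 0.72 ± 0.17 (adjusted p 0.00339), and a second Nop56 probe set gave 1.46. Fbl, or fibrillarin, the methyltransferase of the same particle, read 267 and 196 at 12 h and 199 and 283 at 18 h. The 1 to 6 h arrays gave 204 to 288 for Fbl, so the groups overlapped throughout, and the change was -0.02 ± 0.13 (adjusted p 0.944). A second Fbl probe set gave 0.24. Whether Fbl differed from Nop56 and Nop58 was not tested, since these are levels of different probe sets.

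In the H/ACA snoRNP, which makes pseudouridine, neither member was called on the probe set analysed. Dkc1, or dyskerin, the pseudouridine synthase, read 216 and 394 at 12 h and 81.4 and 185 at 18 h, against 127 to 162 at 1 to 6 h. Its 12 h arrays were the highest adult ones and its first 18 h array the lowest, and the change over both times was 0.44 ± 0.18 (adjusted p 0.0903). Its other 2 probe sets, of mean intensity 258 and 264, gave 0.73 and 0.61. Nop10, a small subunit of the same particle, changed by -0.10 ± 0.13.

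Of the 20 small-subunit factors, 8 rose over 1 to 6 h: Rrp12, Utp11, Nol10, Rrp36, Utp20, Utp6, Utp18 and Utp3, by 0.51 to 1.47. Rrp12, which helps to export and mature pre-ribosomal particles, showed the largest rise of any member. It read 139 and 96.4 at 12 h and 59.6 and 108 at 18 h, against 11.3 to 60.1 at 1 to 6 h and 38.4 and 18.5 at time 0. Only one 6 h array reached the range of the later arrays, and the rise was 1.47 ± 0.17 (adjusted p 2.43e-06). Utp11, a component of the small subunit processome, read 256 and 287 at 12 h and 204 and 255 at 18 h, above all of the 129 to 150 at 1 to 6 h, and rose by 0.78 ± 0.11 (adjusted p 2.42e-05). The first time 0 array, at 216, overlapped the risen level. Utp3 read 333 to 374 on the 4 arrays against 201 to 290 at 1 to 6 h, and Utp6 155 to 279 against 129 to 152, both without overlap. The rise of Utp6 was not seen in its other 2 probe sets, which gave -0.38 and 0.01, and the mean of its sets was not called (adjusted p 0.722). Of the 8 calls, that of Utp18 was lost under 7 of 19 alternative settings, those of Rrp36 and Utp20 under 3 each and that of Utp6 under 1. The 12 other small-subunit members did not pass the test, with changes between -0.17 for Rrp7a and 0.30 for Utp25.

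Of the 13 large-subunit factors, 7 rose: Nop2, Wdr12, Nol8, Rrp8, Rrp15, Pes1 and Bop1. Nop2, a methyltransferase of the large-subunit RNA that has long served as a marker of proliferating cells, read 309 and 271 at 12 h and 190 and 274 at 18 h, against 73.5 to 122 at 1 to 6 h. All 4 arrays were above all earlier ones, and the rise was 2.57-fold (1.36 ± 0.15, adjusted p 2.08e-06). The 3 genes of the PES1-BOP1-WDR12 complex passed the test on the probe sets analysed. Wdr12 read 129 to 179 at 12 and 18 h against 51.1 to 81.3 at 1 to 6 h and rose by 1.00 ± 0.14 (adjusted p 3.06e-05). Pes1 read 144 to 200 against 76.7 to 130 and rose by 0.58 ± 0.14 (adjusted p 0.00378). Neither overlapped its 1 to 6 h arrays. A second Pes1 probe set, of mean intensity 134, gave 0.03, and with the mean of a gene's probe sets neither Pes1 (adjusted p 0.055) nor Wdr12 (adjusted p 0.143) was called. Bop1 read 147 and 212 at 12 h and 246 and 252 at 18 h against 140 to 171, overlapping, with a rise of 0.40 ± 0.13 (adjusted p 0.0369) that was lost under 9 of 19 alternative settings. Nol8 read 140 and 151 at 12 h and 87.0 and 94.8 at 18 h against 35.5 to 108 at 1 to 6 h, and rose by 0.87 ± 0.17 (adjusted p 0.000626). The call of Rrp8, a dim probe set, was lost under 5 of 19 settings. The other 6 large-subunit members changed by -0.13 (Nop53) to 0.46 (Nop16) and did not pass.

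**Figure D3:**
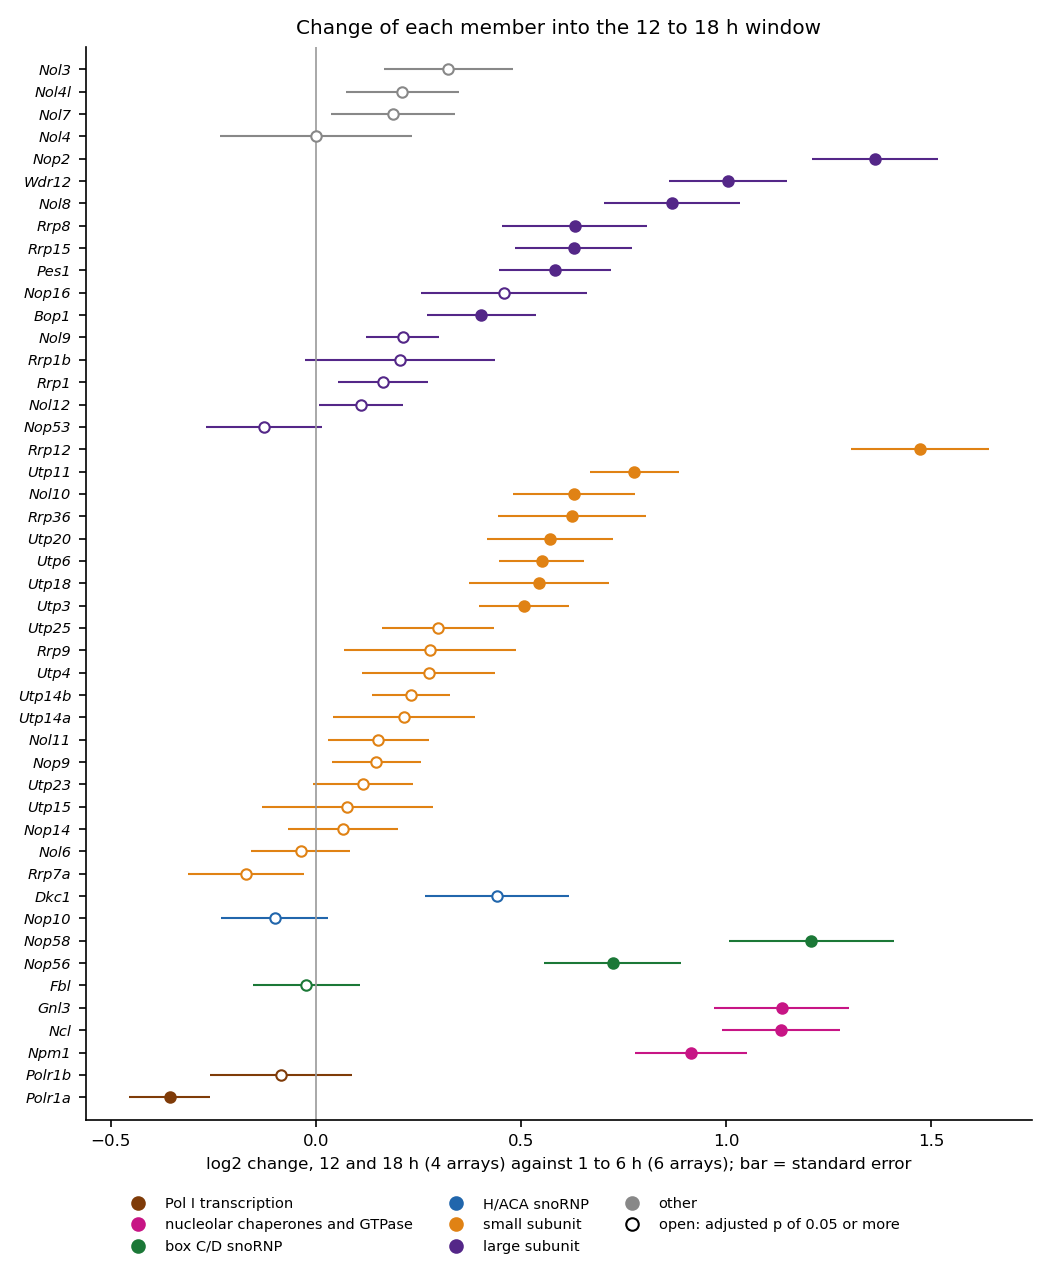
Log2 change of each of the 47 members at 12 and 18 h (4 arrays) against 1 to 6 h (6 arrays), as points with standard errors, coloured by role; open points did not pass the test. Rrp12 (1.47) and Nop2 (1.36) lead, and Polr1a is the 1 filled point below 0.

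The catalytic subunits of RNA polymerase I did not rise on the probe sets analysed. Polr1a, the largest subunit, read 84.8 and 81.2 at 12 h and 93.8 and 103 at 18 h, all below the 111 to 155 of 1 to 6 h, and fell by 0.36 on the log2 scale (SE 0.10, adjusted p 0.014). This direction is that of 1 probe set. A second probe set of Polr1a, also above the median of all values, had means of 122 and 119 at 12 and 18 h, above the 90.5 and 90.7 of 2 and 6 h, and gave 0.39, and the mean over its 5 probe sets gave 0.09. Polr1b, the second-largest subunit, read 121 and 66.4 at 12 h and 63.4 and 70.1 at 18 h, against 71.1 to 98.5 at 1 to 6 h. One array lay above that range and 3 just below it, and the change was -0.08 ± 0.17.

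Levels at 12 and 18 h could not be separated for any member. In a comparison of 18 h with 12 h (2 arrays each), added after the values were seen, 0 of 47 members were called by limma, where 0.374% of all genes were called higher and 0.363% lower. Of the members 7 had an unadjusted p below 0.05, and Dkc1 came closest with -1.14 ± 0.27 (adjusted p 0.0528).

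The promoters of these genes were read for the hexamer CACGTG, the E-box bound by MYC among other factors, because MYC is known to drive nucleolar genes. RefSeq promoters (build GRCm38.p6, 250 bases before to 50 after the start) matched 36 of the 47 members by symbol. The hexamer, which reads the same on both strands, was present in 9 of these 36 (25%), against 8.09% of all 27025 genes with a promoter in that table. Within the 250 bases before the start it was present in 6 members (16.7%) against 6.86% of all genes. The 27025 genes were not limited to those on the arrays or matched for base composition, and the difference was not tested. In the whole window the hexamer was in 4 of 15 members called higher at 12 and 18 h over 1 to 6 h (26.7%). It was in 5 of 21 not called higher (23.8%), and these counts are too small to show or exclude a difference. Nol11 counts as not called from the analysed probe set, which gave 0.15, while a further set of mean intensity 288 gave 0.56. The last 100 bases before the start are shown for 2 members that rose and carry the hexamer there, Nop2 and Utp18, for 2 that carry it and were not called, Nol11 and Utp14b, and for 2 that rose without it in this window, Nop58 and Ncl. Capitals mark the hexamer, and each sequence is on the gene's strand.
Nop2: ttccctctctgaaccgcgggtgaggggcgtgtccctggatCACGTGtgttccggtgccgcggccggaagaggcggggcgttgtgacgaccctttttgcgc
Utp18: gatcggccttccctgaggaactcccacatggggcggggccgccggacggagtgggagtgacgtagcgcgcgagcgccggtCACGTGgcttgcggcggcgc
Nol11: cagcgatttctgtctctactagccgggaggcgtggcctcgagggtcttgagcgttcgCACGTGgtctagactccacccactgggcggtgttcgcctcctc
Utp14b: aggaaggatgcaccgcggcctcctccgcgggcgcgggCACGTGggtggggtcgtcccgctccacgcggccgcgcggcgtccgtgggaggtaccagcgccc
Nop58: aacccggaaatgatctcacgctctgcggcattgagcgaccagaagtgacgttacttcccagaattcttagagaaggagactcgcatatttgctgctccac
Ncl: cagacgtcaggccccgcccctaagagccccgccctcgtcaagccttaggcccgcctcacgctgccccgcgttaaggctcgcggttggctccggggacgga
These stretches are Nop2 at chr6:125131783-125131882 on the forward strand, Utp18 at chr11:93885767-93885866 on the reverse strand, Nol11 at chr11:107189382-107189481 on the reverse strand. The others are Utp14b at chr1:78658340-78658439 on the forward strand, Nop58 at chr1:59684906-59685005 on the forward strand, Ncl at chr1:86359456-86359555 on the reverse strand. The first base of the hexamer lies 60 bases before the start of Nop2, 20 before that of Utp18, 43 before that of Nol11 and 63 before that of Utp14b. A match of letters is not a bound site, and no binding was measured here.

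The rise was short. At 24 and 30 h (4 arrays) against 12 and 18 h (4 arrays) 13 of 47 members were called lower and 0 higher, where 4.37% of all genes were called lower and 3.67% higher. The median member changed by -0.28, and 23 members had an unadjusted p below 0.05. Of the 13, 12 were among the 20 that had risen over 1 to 6 h, the exception being Dkc1. As these comparisons share the 12 and 18 h arrays, the overlap is partly built in. When only the 8 arrays compared were fitted, 1 member was called, Ncl.

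Npm1 read 424 and 702 at 24 h and 442 and 486 at 30 h, all below the 1134 to 1510 of 12 and 18 h, and fell by 1.31 on the log2 scale (adjusted p 1.08e-05). On 3 of these 4 arrays it was also below the time 0 arrays. Ncl read 262 and 365 at 24 h and 274 and 280 at 30 h and fell by 1.22 (adjusted p 4.69e-05). Rrp12 read 34.2 and 38.6 at 24 h and 25.2 and 26.8 at 30 h and fell by 1.27 (adjusted p 0.000148). Nop2 read 99.0 to 142 over the 4 arrays and fell by 1.10 (adjusted p 0.000247). Each of these 4 had no overlap with its 12 and 18 h arrays. Gnl3 read 196 and 364 at 24 h and 293 and 262 at 30 h and fell by 0.96, and Nop56 read 132 to 164 and fell by 0.86, again without overlap.

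At 72 h the median member was near time 0 (0.04) while markers of cycling cells were high. Of the 47 members 0 were called by limma at 72 h against time 0, where 2.61% of all genes were called higher and 0.297% lower, and 1 had an unadjusted p below 0.05. With 2 arrays a side, a missing call does not show equal levels. On both 72 h arrays 10 members lay above both controls and 6 below, against 4827 and 2797 of all 18194 genes. Npm1 read 887 and 807 against 666 and 686, Ncl 336 and 363 against 445 and 336, and Nop2 87.9 and 101 against 147 and 68.1. Over 12 markers of cycling cells, among them Mki67, Top2a and Cdk1, the summed intensity was 596 and 828 at time 0, 738 to 840 on the 12 and 18 h arrays, and 3864 and 4767 at 72 h. Of these markers 0 of 12 were called at 12 and 18 h against time 0 (1 with an unadjusted p below 0.05) and 12 of 12 were higher at 72 h. Over all genes 5.22% were called higher and 4.81% lower at 12 and 18 h, so 0 of 12 is near that share. Ccnb2, Birc5 and Bub1 averaged below 0 at time 0, so they were not measurable there. Ccnb2 and Birc5 also averaged below 0 at 12 and 18 h, and Cdk1 and Bub1 at 18 h. At 48 h the cycling sum was 986 and 2223, and the member median was -0.06 on the first array and -0.21 on the second, the array with the high 3′ to 5′ ratios.

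Embryonic liver had nearly all members above adult liver. Against time 0, 41 of 47 members were higher and 2 lower over the 6 stages (12 arrays), where 30.5% of all genes were called higher and 24.6% lower. The median member was 1.13 higher on the log2 scale, against 0.02 over all genes. Called at least 2-fold higher were 29 of the 47 members, against 2751 of all 18194 genes. Leaving out both 10.5-day arrays gave 40 higher. Leaving out the first or the second time 0 array gave 36 or 37.

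**Figure D4:**
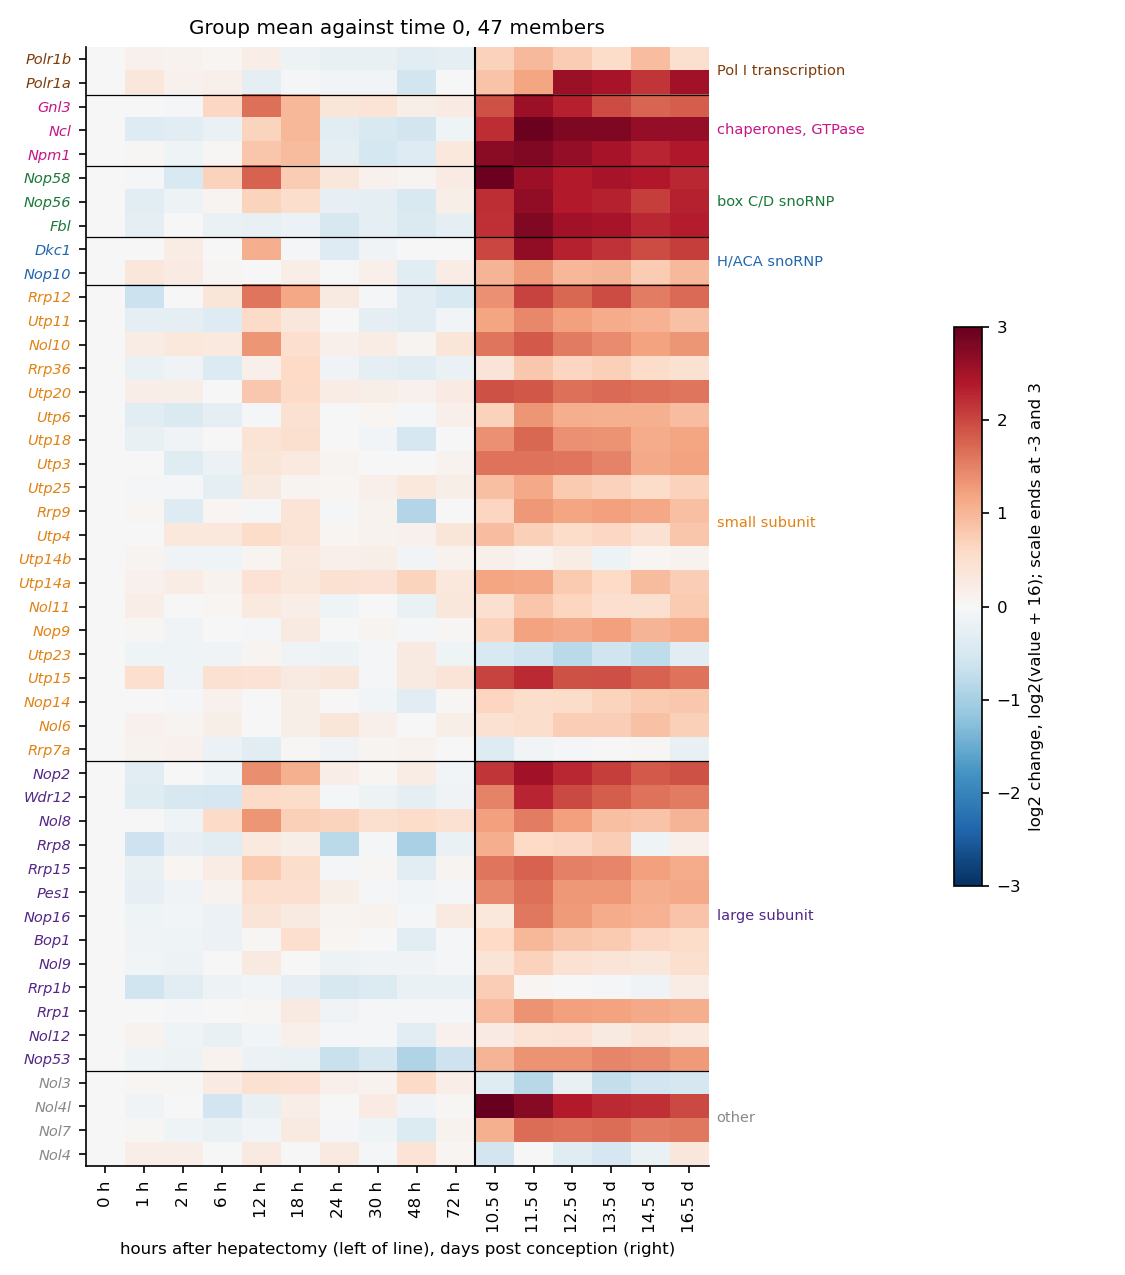
Group mean log2 change from time 0 of the 47 members (rows, ordered by role and by the change at 12 and 18 h) over the 10 adult groups and 6 embryonic groups (columns); the colour scale ends at -3 and 3. The columns of 12 and 18 h are the red ones among the adult groups, and Nol3 and Utp23 are the called rows that turn blue in the embryonic columns.

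Ncl, Npm1, Nop58, Fbl, Nop56 and Dkc1 were among the members with the highest ratios. Ncl read 1329 and 2593 at 10.5 days and 2350 to 3152 on the other 10 embryonic arrays, against 445 and 336 at time 0, a 6.36-fold difference (2.67 ± 0.17, adjusted p 1.99e-11). Npm1 read 4466 and 4573 at 10.5 days, 4381 and 5063 at 11.5 days and 3617 and 3680 at 16.5 days, and was 5.85-fold higher than at time 0 (2.55 ± 0.16, adjusted p 1.57e-11). For both genes every embryonic array exceeded every adult array. Fbl, level after hepatectomy, read 1068 and 1572 at 10.5 days, 1913 and 1953 at 11.5 days and 1305 to 1654 later, against 320 and 226 at time 0. It was 5.38-fold higher (2.43 ± 0.15, adjusted p 1.71e-11) and again free of overlap with any adult array. Nop58 was 5.67-fold, Nop56 5.02-fold and Dkc1 4.60-fold higher, with embryonic ranges of 297 to 621, 736 to 1239 and 498 to 939. The second Nop56 set gave a larger log2 change, 3.69 against 2.33. Nop10 read 1684 to 2536 against 886 and 1145 and was 2.01-fold higher.

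Among the small-subunit factors 17 of 20 were higher and 1 lower, and among the large-subunit factors 12 of 13 were higher. Nop2 read 371 to 673 over the embryonic arrays against 147 and 68.1 at time 0 (4.36-fold, adjusted p 2.16e-09). Wdr12 read 273 to 568 against 127 and 76.9 (3.47-fold), Pes1 257 to 405 against 148 and 88.4 (2.50-fold) and Bop1 232 to 374 against 184 and 161 (1.66-fold). In each of these 3 genes all 12 embryonic arrays lay above both controls, but the second Pes1 probe set gave 0.24 on the log2 scale. Gnl3 read 696 to 1367 against 224 and 190 (4.15-fold). The 4 members that were not called were Nol4, Rrp1b, Rrp7a and Utp14b. Utp14b, a retroposed copy of Utp14a, read 218 to 333 over the embryonic arrays against 257 and 289.

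Against the regenerating peak at 12 and 18 h, 36 of 47 members were still higher in the embryo and 2 lower, where 33.8% of all genes were called higher and 30.6% lower, with a median of 0.72. The count of higher members was 31 after quantile normalization and 30 with the mean of a gene's probe sets. The members differed in how near the peak came to the embryonic level. Fbl was 2.62 ± 0.12 higher in the embryo, Ncl 1.84 ± 0.13, Npm1 1.66 ± 0.12, Nop58 1.23 ± 0.18, Nop2 0.90 ± 0.14 and Gnl3 0.72 ± 0.15. The call of Gnl3 was lost after quantile normalization (limma adjusted p 0.0535). Rrp12, at 83.4 to 161 in the embryo and 59.6 to 139 at 12 and 18 h, differed by 0.33 ± 0.15 (adjusted p 0.058), and Nol8 by 0.11 ± 0.15 (adjusted p 0.533). For these 2 genes the groups overlapped, and a difference was not shown.

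Markers of several cell types moved with the embryonic comparison, and some moved at 12 and 18 h. Over 7 measured erythroid markers of 10 listed, the summed intensity was 531 and 563 at time 0, between 7266 and 9103 at 10.5 and 11.5 days and between 13947 and 16976 later, and 6 of the 7 were called higher. The cycling sum was 15209 to 25565 in the embryo, with 12 of 12 markers higher. Over 6 mesenchyme markers the sum was 1045 and 1361 at time 0 and 2892 to 7501 in the embryo, with 5 of 6 higher and 1 lower. Over 8 neutrophil and progenitor markers it was 692 and 706 at time 0 and 1134 to 8548 in the embryo, with 7 of 8 higher. Of 4 fetal liver markers 3 were higher and 1 lower. Afp, Igf2 and Dlk1 averaged 53.2, 176 and 35.8 at time 0 and 2683, 5285 and 2587 at 10.5 days. Ahsg, the lower one, averaged 6939 at time 0, 4.59 at 10.5 days and 3375 at 16.5 days. The sum was 6639 and 7769 at time 0, most of it Ahsg, and 10255 to 16702 in the embryo, so it understates the rise of the other 3. Of 8 hepatocyte markers 5 were lower and 1 higher, and Tat averaged below 0 at 10.5 and 16.5 days, so that it was not measurable there. Of 6 macrophage markers 0 were higher and 2 lower, and of 6 endothelial markers 1 was higher and 1 lower. At 12 and 18 h over 1 to 6 h, 1 of 6 mesenchyme markers was higher and 3 lower. Endothelial markers gave the same counts. Macrophage markers gave 1 higher and 2 lower, and hepatocyte and erythroid markers each 0 higher and 1 lower. The cycling, neutrophil and fetal liver lists had 0 called. Over all genes 8.9% were higher there and 9.51% lower. The part of these markers in the members' changes was not tested.

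Within the embryonic series few members followed a line. Per day, 1 member rose and 5 fell, where 16.2% of all genes were called higher and 11.4% lower, with a median slope of -0.03, so the members' shares were not above those of all genes. On leaving out 1 array the falling count was 7 without the first 10.5-day array, 3 without the second, 3 without the first 16.5-day array, 2 without the second and 4 or 5 without any other embryonic array. It was 8 with the constant 64, 9 after quantile normalization and 11 with only the embryonic arrays fitted. Those that fell were Nol4l, Rrp8, Rrp15, Utp3 and Utp11, by 0.16, 0.16, 0.10, 0.09 and 0.07 on the log2 scale per day. Utp3 read 902 and 939 at 10.5 days and 706 and 647 at 16.5 days. Rrp8 read 108 and 129 at 10.5 days and 51.0 and 57.1 at 16.5 days. The 1 that rose was Polr1a, at 186 and 215 at 10.5 days, 266 and 240 at 11.5 days, 681 and 716 at 12.5 days and 655 and 669 at 16.5 days. This was a step between 11.5 and 12.5 days rather than a slope (0.26 ± 0.02 per day, adjusted p 1.11e-08). The second Polr1a probe set had no such step, with means of 149, 238, 199, 203, 172 and 195 over the 6 stages and a slope of 0.01. Both sets were above time 0 in the embryo, by 1.96 and 1.26.

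The members that rose after hepatectomy were among those higher in the embryo. All 20 called higher at 12 and 18 h over 1 to 6 h were among the 41 called higher in the embryo over time 0, which is 48.8% of the 41, and these comparisons share no arrays. Since 41 of 47 members were called in the embryo, a complete overlap leaves little to read. Across the 47 members the changes correlated with Pearson's r = 0.481 and Spearman's rho = 0.448, against 0.273 and 0.223 over all genes. The members share their arrays and are not independent, so this is a description.

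**Figure D5:**
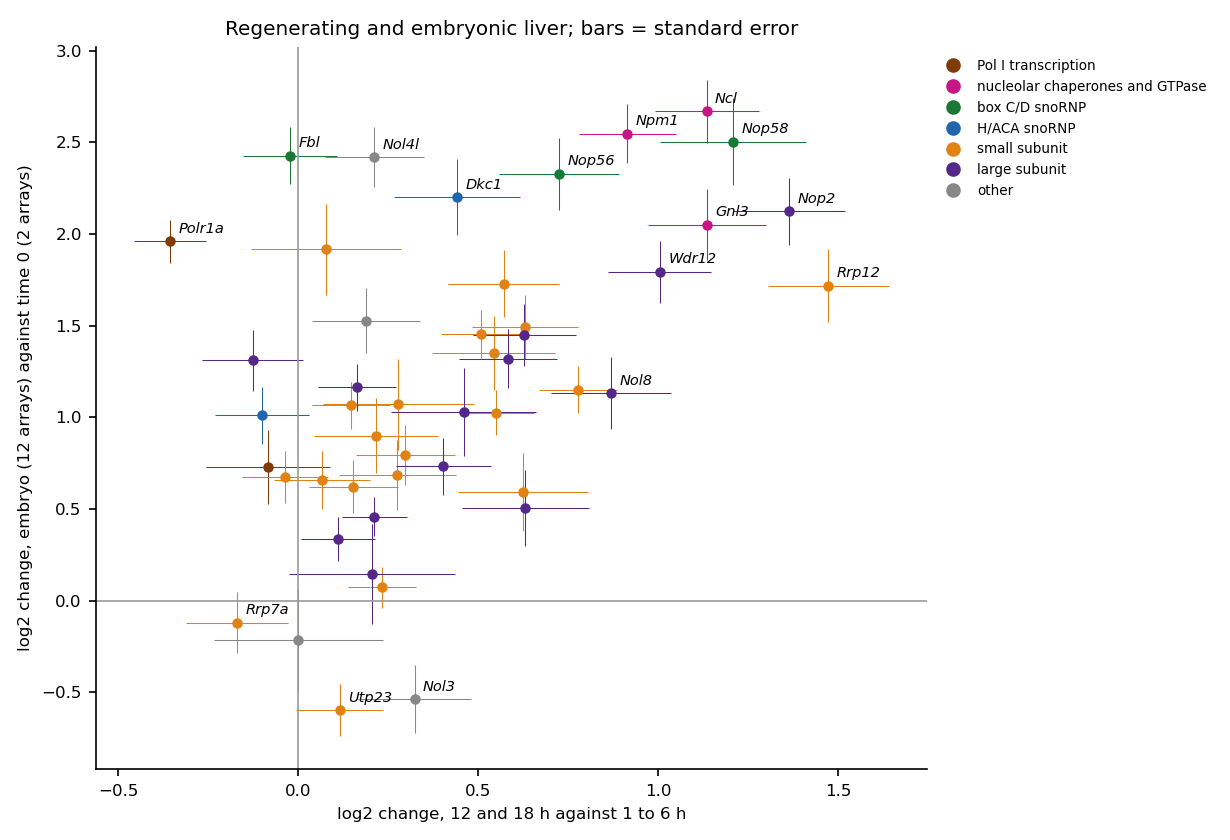
Log2 change at 12 and 18 h against 1 to 6 h (x) and in embryo against time 0 (y) for the 47 members, with standard errors and colours by role. Ncl, Npm1, Nop58, Gnl3 and Nop2 are high on both axes, Fbl and Nol4l on the y axis alone, and Nol3 and Utp23 lie below 0 on the y axis.

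The genes that went against the rest were Utp23 and Nol3. Utp23, a small-subunit processome protein, read 99.3 to 172 in the embryo against 189 and 197 at time 0 and was lower by a log2 change of -0.60 ± 0.14 (adjusted p 0.00136). The 2 dimmest Utp23 probe sets gave 1.06 and 0.86 and another gave 0.09, so the direction depends on the probe set, and the mean over the sets gave 0.35 (adjusted p 0.0157). Nol3, the repressor of apoptosis, read 15.4 to 49.8 in the embryo against 43.6 and 42.1 at time 0 (-0.53 ± 0.19, adjusted p 0.0186). All its values but those of 1 array at 48 h lay below the median of all values, and it was not called without either time 0 array. Nol4l read 97.2 to 246 in the embryo and at most 22.1 on any adult array (10.1 and 17.3 at time 0), without overlap (adjusted p 4.65e-11). No fold is given, since its adult values are of the size of the added constant and the change of 2.42 depends on it. A dimmer Nol4l set gave 1.84 and another, dimmer still, gave -0.09. Nol7 read 665 to 1167 in the embryo against 413 and 267 at time 0 (2.88-fold), but its 3 other, dim probe sets gave -0.31, -0.61 and -0.47 and the mean over its sets was not called (adjusted p 0.737). None of these 4 prefix members, Nol3, Nol4, Nol4l and Nol7, was called at 12 and 18 h over 1 to 6 h.

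Of 117 further assembly genes listed (RNA polymerase I, small and large subunit, snoRNP and RNA exosome), 108 were measured. At 12 and 18 h over 1 to 6 h, 44 of the 108 were higher (40.7%, against 8.9% of all genes) and 0 lower (62 with an unadjusted p below 0.05), with a median of 0.33. The snoRNP genes gave 7 of 11, the large-subunit genes 18 of 38, the small-subunit genes 12 of 34, the polymerase genes 4 of 13 and the exosome genes 3 of 12. At 24 and 30 h 37 of the 108 were lower than at 12 and 18 h (34.3%, against 4.37% of all genes), and at 72 h 1 was higher than at time 0 (0.926%, against 2.61%). In the embryo 88 were higher than at time 0 (81.5%, against 30.5%) and 3 lower, with a median of 1.21. The 48 measured genes for proteins of the ribosome itself had a median of 0.32 at 12 and 18 h over 1 to 6 h, with 45 of 48 changes positive. This median was close to the members' 0.30, but only 3 of the 48 were called higher (6.25%, against 8.9% of all genes), a share near the background. Against time 0 their median was 0.62, with 42 of 48 positive. There 1 was called higher (2.08%, against 5.22%) and 1 lower (2.08%, against 4.81%). In the embryo 45 of the 48 were higher than at time 0 (93.8%, against 30.5%) and 2 lower.

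The members' 104 probe sets, none of which is listed for several genes, allow a check of single readings. In 31 members more than 1 probe set was present, which gave 57 further sets. Of the 28 further sets above the median of all values, 23 had the sign of the analysed set at 12 and 18 h over 1 to 6 h and 24 in the embryo over time 0. With the dim sets included, 39 and 38 of 57 did. For Npm1 a second set gave 1.30 and 3.23, against 0.91 and 2.55. For Ncl, sets of mean intensity 693 and 1018 gave 1.33 and 1.18 at 12 and 18 h over 1 to 6 h, against 1.13. The 2 dimmest Ncl sets, of mean intensity 106 and 87.6, gave 0.29 and 0.06 there, and 2.10 and -1.40 in the embryo over time 0.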

How the data were processed

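Each array was hybridised with biotinylated cRNA from 6 microg of Trizol-extracted total RNA, per the labels' protocols. The authors deposited 1 linear intensity per probe set and array, but its software, background treatment and normalization were not given in the sources used. Between 2.54% and 4.02% of an array's values were below 0, and these were set to 0 before log2(value + 16). Of 45101 probe sets, 34958 were listed with 1 gene, and the set of highest mean log2(value + 16) was used per gene.

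In R 4.3.3, a single limma 3.58.1 model over the 32 arrays, with a mean for each group and eBayes(trend = TRUE), gave 16 residual and 4.76 prior degrees of freedom. Simulated data served to test the code. With 2 arrays a group, the spread is pooled over the 16 groups, and the number of arrays limits the precision. Any member may be named, with values per array for the 10 members named singly, for the largest changes without overlap, and for members called against the majority. Alternatives covered the added constant, quantile normalization, the choice of probe set, a filter on low values, array weights, a replicate block, a fit on only the arrays compared, and leaving out each array. The members, roles and lists were chosen with earlier results of these data known.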

Additional observations from a re-analysis of the deposited data

How the results depend on the processing

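The median change of the members kept its direction at 12 and 18 h, at 24 and 30 h and in the embryo under every alternative except leaving out single arrays, for which medians were not computed. The mean of a gene's probe sets reversed Polr1a at 12 and 18 h over 1 to 6 h (0.093), Nol12 in the embryo over time 0 (-0.18) and over 12 and 18 h (-0.20), and Utp23 in the same 2 comparisons (0.35 and 0.045). The same setting left 0 members lower at 12 and 18 h over 1 to 6 h, 1 lower in the embryo over time 0, 1 lower over 12 and 18 h, and 2 with a rising slope. The filter on low values, which drops dim genes, left 1 lower in either embryonic comparison. Fitting only the arrays compared, with fewer residual degrees of freedom, gave 1 member higher at 12 and 18 h over time 0, 0 lower over 1 to 6 h, 1 lower at 24 and 30 h, 1 lower in the embryo over time 0, and 2 rising and 11 falling slopes. Over all genes that fit called 134 at 12 and 18 h over time 0 and 52 at 24 and 30 h. Falling slopes numbered 8 with the constant 64 and 9 after quantile normalization, and the cause was not tested.

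Leaving out 1 array at a time gave 4 to 14 members higher at 12 and 18 h over time 0, 0 to 1 lower over 1 to 6 h, 1 to 2 lower in the embryo over time 0, and 1 to 3 rising and 2 to 7 falling slopes. Calls kept in every setting numbered 1 of 11 at 12 and 18 h over time 0, 12 of 21 over 1 to 6 h, 1 of 13 at 24 and 30 h, 30 of 43 in the embryo over time 0, 27 of 38 over 12 and 18 h, and 1 of 6 slopes.

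Over 120 pairs of groups, arrays of the same replicate number showed no common direction of deviation (median r -0.006). Single pairs of groups ran from -0.359 to 0.555, over 0.1 in 17 and under -0.1 in 21. The numbers were therefore not taken to pair the arrays, though deviations shared by some groups remain. With the number as a block, 10 members were higher at 12 and 18 h over time 0, 20 over 1 to 6 h and 40 in the embryo over time 0, and 13 were lower at 24 and 30 h. Dim probe sets limit the reading of Nol3, Nol4l and Rrp8.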
